A study of Homo sapiens with 12 samples.

Results

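The 45 genes described here were counted in the prostate cancer cell lines VCaP-T and VCaP-CT and lie outside the authors' normalized table. Their level differed between the lines at both testosterone doses. On a switch of dose, their group means (offset as given below) changed at most 2-fold. The selection is 45 of 58381 genes in the count files. Of these, 38639 are outside the normalized table, which holds 19742 genes (19671 of them protein-coding in Gencode 44), and 38525 remained after leaving out the mitochondrial chromosome, chromosome 7 from 110 to 120 Mb and 10 named noncoding genes. A group mean of CPM + 0.1 of at least 1 in some group left 3185 genes. CPM are the fragments of a gene per M fragments counted in its library. A ratio of 10 over 0.1 nM T between 0.5 and 2 within each line left 2941. The genes were thus chosen by measured group means: the last step kept those with a VCaP-CT over VCaP-T ratio of group means (CPM + 0.1) of at least 4 at both doses (5 genes, called the higher genes below) or at most 0.25 at both (40 genes, the lower genes). The ratio of the lines therefore chose the genes and is given as a description, without a test.

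The study addressed how androgen-dependent cells adapt to castration levels of testosterone (T). VCaP cells of passage 15, which carry the TMPRSS2-ERG fusion of the parental metastasis-derived line, were grown at 10 nM T to give VCaP-T, and 10 months of culture of VCaP-T at 0.1 nM T gave VCaP-CT. Poly(A) RNA was sequenced in 12 libraries, 3 per group. VCaP-T (passage 84) was sequenced at its own dose of 10 nM T and after 48 h at 0.1 nM T (depleted), and VCaP-CT (passage 73) at its own dose of 0.1 nM T and after 48 h at 10 nM T (rechallenged). Both lines share their origin and medium, and each is a single long-term culture, so line, passage and culture history cannot be told apart. Whether replicates are separate cultures is not given in the sources used here, and p-values measure only the spread between these libraries, which may be technical.

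Most of the genes are long noncoding RNAs or pseudogenes. A long noncoding RNA is transcribed and often spliced like an mRNA but has no recognised protein product; many start beside a coding gene on the opposite strand (divergent transcripts, named -DT), overlap a gene in antisense (-AS), or host a microRNA. A processed pseudogene is an mRNA copied back into the genome without introns, whereas an unprocessed pseudogene is a duplicated gene that lost its coding capacity and often keeps introns. In prostate cancer, several noncoding RNAs are androgen-regulated or used as tissue markers, but those best known for this were left out by the selection rule.

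In Gencode 44, the 40 lower genes comprised 20 long noncoding RNAs, 7 transcribed unprocessed pseudogenes, 5 processed pseudogenes, 1 transcribed unitary pseudogene, 2 microRNA genes, 1 U3 small nucleolar RNA gene and 1 protein-coding gene, and 3 identifiers are not in that release. The 5 higher genes comprised 2 long noncoding RNAs, 2 entries of the class TEC (transcripts awaiting experimental evidence) and 1 processed pseudogene. Genes lying within 100 kb of each other formed 30 groups among the lower genes, of which 23 held 1 gene, 4 held 2 and 3 held 3. Chromosome 2 carried 11 of the 40, and 3 of the 5 higher genes lay on chromosome 15 between 20642799 and 20890606 (GRCh38, as all coordinates here).

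The 3 groups of 3 genes all lay on chromosome 2. Each group held a KLF2 and a FAR2 pseudogene, while the remaining gene was not the same in all groups. They included 3 processed pseudogenes of KLF2, a zinc finger transcription factor: KLF2P1 (chr2:130036958-130038422, plus strand), KLF2P2 (chr2:130427731-130429225, plus strand) and KLF2P3 (chr2:130692243-130693770, minus strand). Over the aligned bases KLF2P1 was 96.4% identical to KLF2P2 and 96.5% to KLF2P3, and KLF2P2 and KLF2P3 were 99.3% identical. The gap-free stretch of 120 bases in which they differ most is shown because fragments can be told apart between the copies only at such bases. Each line runs 5′ to 3′ along the gene's own strand and has its 9 differing positions in capitals. The stretches are at chr2:130038070-130038189, chr2:130428873-130428992 and chr2:130692524-130692643.
KLF2P1: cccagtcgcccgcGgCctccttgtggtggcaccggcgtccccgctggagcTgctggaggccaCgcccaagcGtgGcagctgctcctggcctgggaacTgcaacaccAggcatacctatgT
KLF2P2: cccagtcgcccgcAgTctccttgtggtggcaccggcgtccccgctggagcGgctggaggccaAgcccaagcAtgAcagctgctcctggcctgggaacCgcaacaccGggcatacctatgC
KLF2P3: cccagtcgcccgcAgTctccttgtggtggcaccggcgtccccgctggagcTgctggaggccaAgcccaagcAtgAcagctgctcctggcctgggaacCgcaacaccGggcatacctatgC

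ANXA2P2 (chr9:33624274-33625293) is a processed pseudogene of ANXA2, a calcium-dependent membrane-binding protein, and had the most fragments per kb of exon among the 45 genes. It is shown beside its parent because it was 98.4% identical to the ANXA2 coding sequence over all 1020 bases. Its frame had no stop codon before codon 340, the stop codon of ANXA2. The gap-free stretch with most differences, coding bases 101 to 220 of the canonical Gencode 44 transcript of ANXA2 and chr9:33624374-33624493, holds 5 differing positions in capitals.
ANXA2P2: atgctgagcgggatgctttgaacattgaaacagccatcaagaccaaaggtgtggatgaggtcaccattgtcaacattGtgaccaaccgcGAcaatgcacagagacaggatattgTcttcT
ANXA2: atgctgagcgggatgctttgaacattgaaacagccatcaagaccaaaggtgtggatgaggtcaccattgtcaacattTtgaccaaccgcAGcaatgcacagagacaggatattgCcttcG

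Of the lower genes, 3 encode or host microRNAs, short RNAs that pair with target mRNAs through the seed, bases 2 to 8. MIR9-3HG (chr15:89361579-89398487) hosts MIR9-3, and MIR3189 and MIR5572 were counted themselves. Their RefSeq mature sequences (GRCh38.p14) are shown, seed in capitals, to identify the products; no seed is shared among them.
miR-9-5p: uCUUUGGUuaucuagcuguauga
miR-9-3p: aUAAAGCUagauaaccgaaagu
miR-3189-5p: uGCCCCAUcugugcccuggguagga
miR-3189-3p: cCCUUGGGucugaugggguag
miR-5572: gUUGGGGUgcaggggucugcu
Poly(A) libraries do not measure mature microRNAs. MIR9-3 itself had 0 fragments in all 12 libraries, so the values below are those of host or precursor intervals.

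The lower genes were measured in VCaP-T at a mean over the 6 libraries of 0.834 to 78.0 CPM (median 2.73) and in VCaP-CT at a median of 0.178 CPM, with 14 of 40 under 0.1 CPM. Their summed level was 268 to 334 CPM in the 6 VCaP-T libraries and 25.2 to 36.5 CPM in the 6 VCaP-CT libraries. In 39 of 40, all 6 VCaP-CT libraries were below all 6 VCaP-T libraries, where 9.80% of the 3185 genes at the level of the rule had this order. The exception was ZSCAN12P1, whose depleted VCaP-T replicate 2 had 0.398 CPM against 3.37 to 4.58 CPM in the other VCaP-T libraries and 0.513 to 0.87 CPM in VCaP-CT. All 40 passed the filter on low counts and were called lower at both doses, beside 2.93% of the 5492 tested genes outside the table. Since the rule used this contrast, nothing is read from this share or from that of the library order. In bulk RNA, fewer cells expressing a gene and less RNA per cell cannot be told apart.

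**Figure D1:**
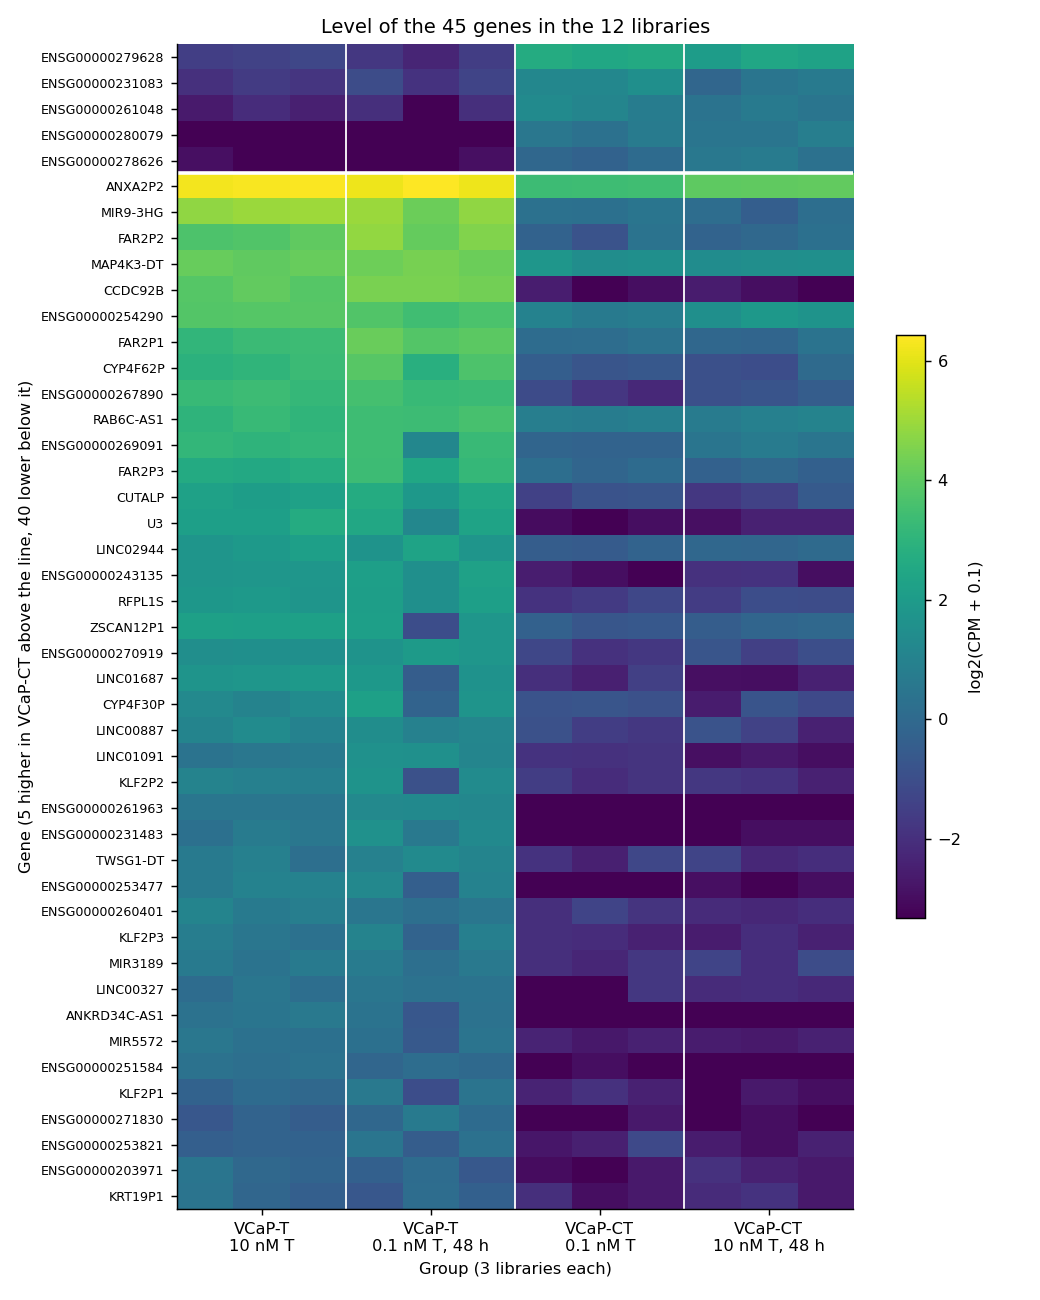
Heat map of log2(CPM + 0.1) for the 45 genes (rows, ordered by mean level in the line where they are high) in the 12 libraries (columns, 3 per group, dose and line on the axis). The 5 higher genes are above the white line, and the summed level of the 40 genes below it is 268 to 334 CPM in VCaP-T libraries and 25.2 to 36.5 CPM in VCaP-CT libraries.

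**Figure D2:**
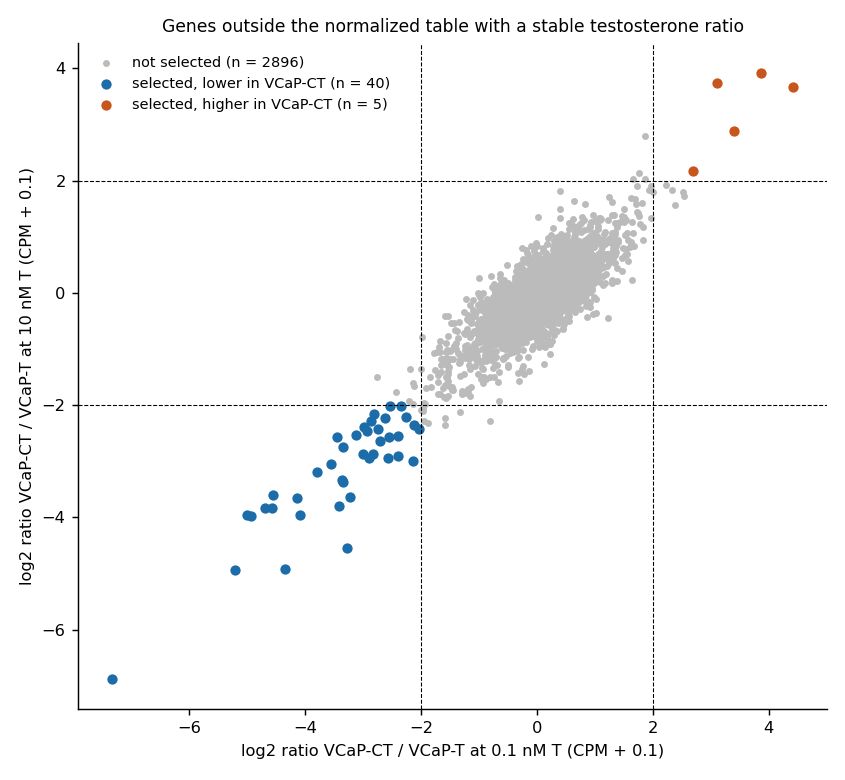
Ratio of VCaP-CT over VCaP-T on a log2 scale at 0.1 nM T (horizontal) and 10 nM T (vertical), from group means of CPM + 0.1, for the 2941 genes with a stable testosterone ratio. Dashed lines mark the thresholds of the rule; the 40 lower genes are blue, the 5 higher genes orange, and CCDC92B is the lowest point.

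By the ratios of the rule, the most pronounced difference was that of CCDC92B (chr17:2720801-2723947, minus strand), annotated as protein-coding in Gencode 44 but absent from the normalized table. Its level was 14.4, 17.0 and 14.5 CPM in VCaP-T at 10 nM T and 22.01, 22.01 and 20.05 CPM after depletion. In VCaP-CT it was at 4 fragments over the 3 libraries at 0.1 nM T and 3 fragments at 10 nM T. The groups were far apart, with ratios of 117 at 10 nM T and 160 at 0.1 nM T. An identifier absent from Gencode 44, ENSG00000261963 (chr17:2724411-2749504), lies inside the Gencode 44 body of the same gene and had 1.30 to 2.35 CPM in the VCaP-T libraries and no fragment in any VCaP-CT library. Set against a floor of 3 fragments over a group's libraries, it was at least 44.03-fold lower at 10 nM T and at least 85.8-fold lower at 0.1 nM T.

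MIR9-3HG, host of a microRNA known for its part in neural differentiation, had 27.6, 31.4 and 32.1 CPM in VCaP-T at 10 nM T and 31.1, 18.8 and 27.5 CPM after depletion. It had 1.15, 1.11 and 1.27 CPM in VCaP-CT at 0.1 nM T and 1.02, 0.652 and 1.04 CPM after rechallenge. The lines did not overlap, and the ratios were 20.3 and 30.3 at the lower and higher dose. The U3 gene on chromosome 7 (chr7:148389645-148389859), of the family that guides early cleavage of ribosomal RNA, had 2.19 to 6.28 CPM in VCaP-T and at most 0.087 CPM in VCaP-CT. Its interval lies inside CNTNAP2 on the same strand, so fragments of that gene's primary transcript cannot be told from it.

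ANXA2P2 had 76.7, 80.3 and 82.2 CPM in VCaP-T at 10 nM T, 71.8, 85.6 and 71.5 CPM after depletion, 10.0, 10.5 and 10.7 CPM in VCaP-CT at 0.1 nM T, and 16.1, 16.4 and 16.6 CPM after rechallenge. VCaP-CT libraries at the higher dose were above those at the lower dose, and all 6 were below VCaP-T, with ratios of 7.29 at 0.1 nM T and 4.85 at 10 nM T. MAP4K3-DT (chr2:39436637-39665343), a long noncoding RNA of 18 exons read away from the kinase gene MAP4K3, had 16.3 to 21.4 CPM in the VCaP-T libraries and 2.59 to 3.40 CPM in the VCaP-CT libraries. ENSG00000254290, a long noncoding RNA of 1 exon, had 10.8 to 14.6 CPM in VCaP-T, 1.49 to 1.89 CPM in VCaP-CT at 0.1 nM T and 2.79 to 3.55 CPM after rechallenge. ENSG00000267890 (chr19:50075123-50075902) had 8.92 to 11.5 CPM in VCaP-T and 0.115 to 0.638 CPM in VCaP-CT.

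A further pair of genes with large ratios overlap coding genes. ENSG00000243135, whose exons lie within the UGT1A3 coordinates of Gencode 44, had 2.82 to 4.70 CPM in VCaP-T and 0 to 0.17 CPM in VCaP-CT, and 80.0% of its exonic bases overlap exons of other genes. ENSG00000253477, on the opposite strand to RIMS2, whose body it overlaps, had 0.663 to 2.25 CPM in VCaP-T and 0 fragments in VCaP-CT at 0.1 nM T, a level at least 62.9-fold lower than after depletion of VCaP-T. ANKRD34C-AS1 was at 0 in all 6 VCaP-CT libraries and at 0.53 to 1.44 CPM in VCaP-T, so it was at least 37.5-fold lower at 0.1 nM T and at least 43.4-fold lower at 10 nM T.

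The genes closest to the threshold on the inside were LINC02944, MIR3189 and ZSCAN12P1, with smaller ratios of 4.03, 4.06 and 4.09. Just outside were ENSG00000261888 (3.997), CYP4F32P (3.96) and LINC03049 (3.91). MIR3189 had 1.09 to 1.55 CPM in VCaP-T and 0.108 to 0.377 CPM in VCaP-CT; its interval lies inside GDF15, and at 73 bases it is shorter than a 75-base read. The ratios of the lower genes thus continued past the threshold without a break.

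The 9 genes of the 3 chromosome 2 groups were lower in VCaP-CT in each group. The first group held RAB6C-AS1, FAR2P1 and KLF2P1 between 129966592 and 130051131, the second FAR2P2, KLF2P2 and CYP4F62P between 130416755 and 130441413, and the third CYP4F30P, FAR2P3 and KLF2P3 between 130680050 and 130718831. FAR2, a fatty acyl-CoA reductase of ether lipid synthesis, and the CYP4F family, cytochrome P450 fatty acid hydroxylases, are the functional relatives of these copies. FAR2P2 was 99.2% identical to FAR2P3 and its whole body was covered by the alignment, whereas FAR2P1 was 95.7% and 94.7% identical to FAR2P2 and FAR2P3 over local alignments. CYP4F62P and CYP4F30P were 99.6% identical over 5763 bases.

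FAR2P2 had 12.99, 13.7 and 16.5 CPM in VCaP-T at 10 nM T, 28.5, 17.5 and 23.9 CPM after depletion, 0.735, 0.459 and 1.21 CPM in VCaP-CT at 0.1 nM T and 0.755, 0.879 and 1.10 CPM after rechallenge. FAR2P1 had 8.42 to 18.3 CPM in VCaP-T and 0.794 to 1.22 CPM in VCaP-CT. CYP4F62P had 6.93 to 14.9 CPM in VCaP-T and 0.397 to 0.928 CPM in VCaP-CT. RAB6C-AS1, which lies in antisense to RAB6C, had 8.08 to 11.9 CPM in VCaP-T and 1.58 to 1.94 CPM in VCaP-CT. Its ratio of 4.66 at 10 nM T was the smallest of the 9 at that dose. FAR2P3, CYP4F30P and the KLF2 copies had ratios between 5.25 and 7.99 at the 2 doses. In depleted VCaP-T replicate 2, the 3 KLF2 copies and CYP4F30P were under 50% of the other 2 libraries of its group. At 0.398 to 0.762 CPM they were still above every VCaP-CT library. This drop was not limited to the copies, as 10 of the 40 lower genes were under 50% in that library. Among the 10 were also U3, ENSG00000253477, ANKRD34C-AS1, LINC01687, ENSG00000269091 and ZSCAN12P1.

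**Figure D3:**
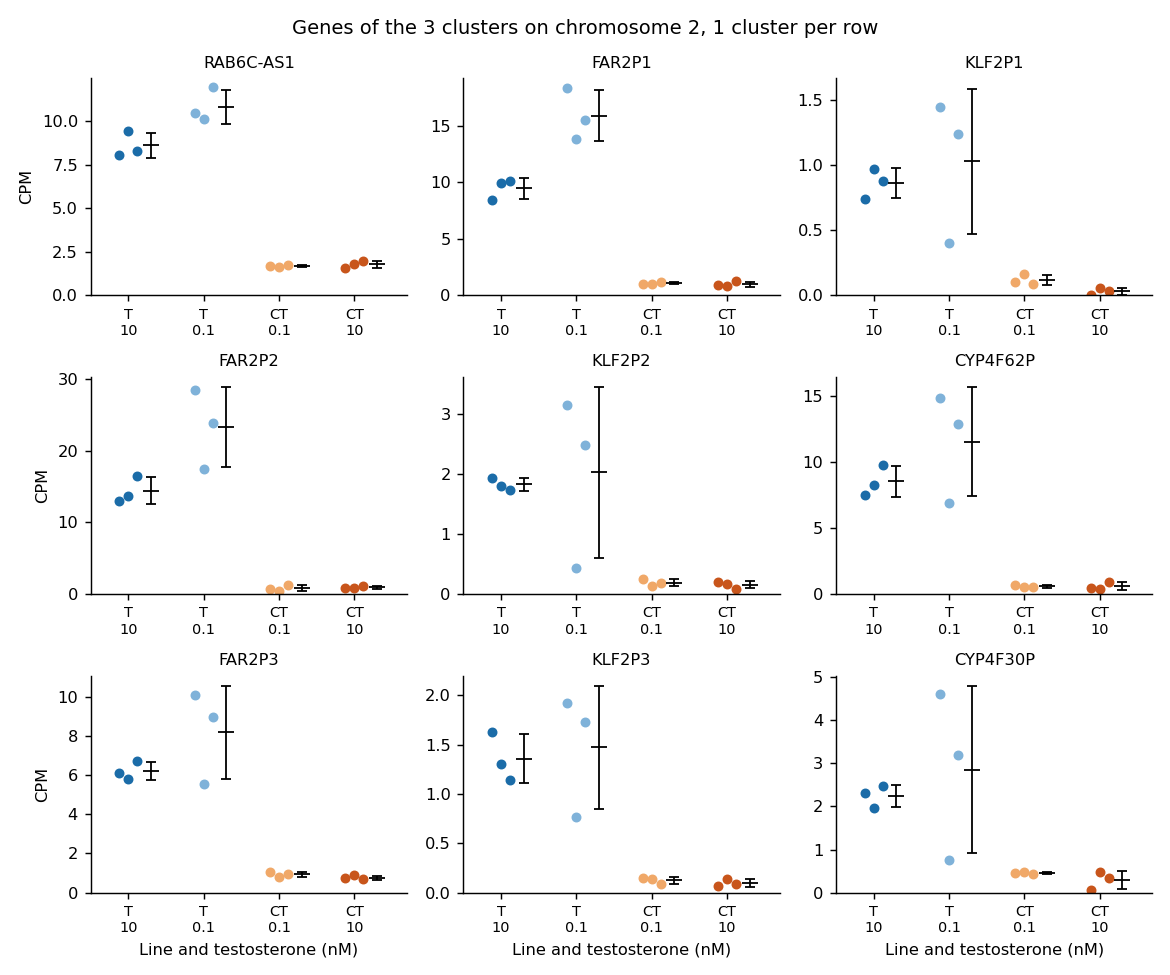
CPM of the 9 genes of the chromosome 2 groups (1 group per row) by line (T, VCaP-T; CT, VCaP-CT) and testosterone in nM. Points are libraries, and the bar beside them is the mean ± SD of 3; in each panel all 6 VCaP-CT libraries are below all 6 VCaP-T libraries.

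The counts of copied genes rest on the bases that differ, because fragments mapping to several places were left out upstream. Of all 75-base windows in the exons, 16.8% were found nowhere else in the genome for CYP4F30P, 21.3% for CYP4F62P, 30.6% for FAR2P2, 40.6% for KLF2P3, 42.0% for KLF2P2, 48.9% for FAR2P3, 69.5% for FAR2P1, 75.7% for KLF2P1 and 82.8% for RAB6C-AS1. The levels of the copies are therefore uncertain against each other. Among the 39 lower genes long enough for such a window, 19 had unique windows throughout and 7 had fewer than 50% unique. The 7 include ENSG00000267890 on chromosome 19, at 47.9%. ANXA2P2 had 81.5% unique windows. Windows were compared with the genome only, not with spliced mRNAs. For a processed copy, a window unique in the genome can still match its parent's mRNA across an exon junction. How many fragments of ANXA2 were counted for ANXA2P2 was not tested.

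The parents of the processed copies were tested in the fit across all genes, which the rule did not use. Since ANXA2P2 was 98.4% identical to the ANXA2 coding sequence, fragments of either may be counted for the other. The values of this pair may therefore not be independent, and the extent was not tested. ANXA2 had 90.5 to 92.3 CPM in VCaP-T at 10 nM T, 80.5 to 136 CPM after depletion, 11.6 to 12.7 CPM in VCaP-CT at 0.1 nM T and 17.6 to 19.8 CPM after rechallenge. It fell in VCaP-CT, with log2 differences of -2.18 at 10 nM T (SE 0.196, edgeR adjusted p = 3.93e-06) and -3.08 at 0.1 nM T (SE 0.204). KRT19, a keratin of simple epithelia, had 74.5 to 123 CPM in VCaP-T and 11.4 to 15.3 CPM in VCaP-CT, with log2 differences of -2.79 (SE 0.215) and -2.91 (SE 0.216) at 10 and 0.1 nM T, both called lower. KRT19P1 (chr6:71584721-71585906) is a processed pseudogene of KRT19, and its 75-base windows were all found nowhere else in the genome. These windows were not compared with the spliced mRNA of KRT19. KRT19P1 had 0.525 to 1.26 CPM in VCaP-T and 0.027 to 0.17 CPM in VCaP-CT.

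Of the functional relatives of the chromosome 2 copies, FAR2 and KLF2 were looked at, and neither was called. FAR2 had 1.86 to 4.42 CPM in VCaP-T and 2.93 to 4.11 CPM in VCaP-CT, with log2 differences of 0.06 (SE 0.241) and 0.11 (SE 0.240) at 10 and 0.1 nM T. KLF2 differed by -0.01 (SE 0.368) and -0.25 (SE 0.327). The signs of these small differences changed when single libraries were left out. ZSCAN12, the parent of ZSCAN12P1, had log2 differences of 0.87 (SE 0.0956) and 0.55 (SE 0.0952), positive and under the fold threshold, whereas ZSCAN12P1 was lower. CUTA, after which CUTALP is named, did not pass the filter on low counts. It had no fragment in any library except rechallenged VCaP-CT replicate 3 (0.087 CPM). Whether CUTA is silent or its fragments were lost in mapping or counting was not tested.

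The 5 higher genes were at low levels in both lines. ENSG00000279628 (chr15:20658900-20664970) had 6.25, 5.51 and 6.03 CPM in VCaP-CT at 0.1 nM T, 4.07, 5.39 and 4.82 CPM after rechallenge, 0.246, 0.277 and 0.319 CPM in VCaP-T at 10 nM T and 0.20, 0.0994 and 0.243 CPM after depletion. The lines did not overlap, with ratios of 12.8 and 21.5 at 10 and 0.1 nM T. Nearby, ENSG00000278626 (chr15:20642799-20643448) had 0.729 to 1.56 CPM in VCaP-CT and 0 to 0.0307 CPM in VCaP-T. ENSG00000261048 (chr15:20890206-20890606), a processed pseudogene of which 24.5% of 75-base windows were unique, had 1.21 to 2.45 CPM in VCaP-CT and 0 to 0.152 CPM in VCaP-T.

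ENSG00000280079 (chr19:20220597-20222186) had no fragment in any VCaP-T library and 1.13 to 1.68 CPM in VCaP-CT, at least 46.4-fold higher at 0.1 nM T and at least 50.2-fold higher at 10 nM T. ENSG00000231083 (chr2:8600892-8622942), a long noncoding RNA of 3 exons, had 2.18 to 2.77 CPM in VCaP-CT at 0.1 nM T, 0.82 to 1.51 CPM after rechallenge and 0.154 to 0.375 CPM in VCaP-T, and its smaller ratio of 4.53 was closest to the threshold. Outside it were ENSG00000280237 (3.78), ENSG00000235023 (3.74) and ENSG00000278952 (3.65), all at higher levels than the selected genes. In all 5, every VCaP-CT library was above every VCaP-T library, an order held by 9.54% of the 3185 genes at the level of the rule. All 5 were called higher at both doses, beside 1.86% of the tested genes outside the table. Since the rule used this contrast, nothing is read from either share.

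The genes of the normalized table within 100 kb of the selected genes, of which the rule used none, were then compared between the lines with edgeR. Calls needed an adjusted p under 0.01, group medians more than 13 normalized counts apart, and a log2 difference larger than 1 in either direction. The 40 lower genes had 85 neighbours, of which 66 passed the filter on low counts. Of these, 20 (30.3%) were lower in VCaP-CT at both doses, where 6.74% of the 13670 tested table genes were. The count of neighbours higher at both doses was 0, also by DESeq2, and 3 were higher at both doses at an unadjusted p under 0.05; 1.80% of the tested table genes were called higher. The median log2 difference of the 66 was -0.57 at 10 nM T and -0.55 at 0.1 nM T, against -0.01 and -0.05 over all tested table genes. The count was 18 to 23 under the other settings of the fit, by DESeq2 and with single libraries left out. Of the 35 lower genes with a tested neighbour, 24 had a neighbour that was lower, and these lay in 17 of 25 groups. Genes of the same group can share a neighbour. The share of other genes outside the table with such a neighbour was not computed, so nothing is read from these counts.

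**Figure D4:**
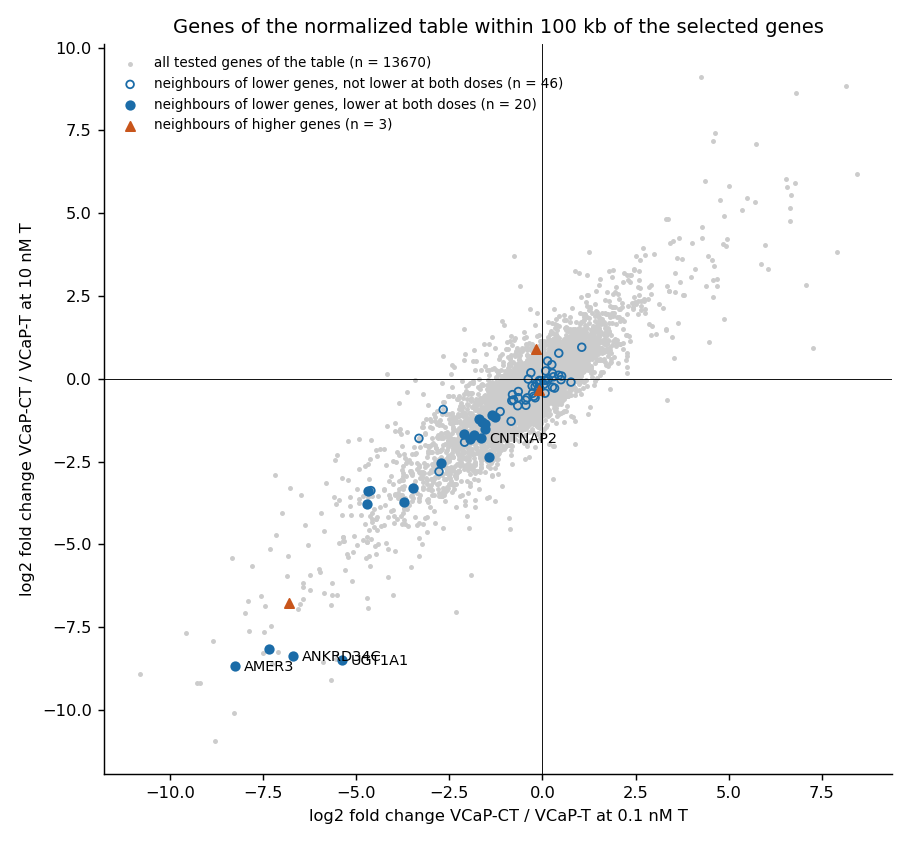
Log2 fold change of VCaP-CT over VCaP-T at 0.1 nM T (horizontal) and 10 nM T (vertical) for all 13670 tested genes of the normalized table (grey), the neighbours of the lower genes (blue, filled where lower at both doses) and the neighbours of the higher genes (orange triangles). Of the 66 blue points, 20 are filled; AMER3 is at -8.26 and -8.66.

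By distance, of 10 tested neighbours whose body overlapped that of a lower gene, 7 were lower at both doses, as were 4 of 9 at 1 base to 10 kb, 3 of 26 at over 10 to 50 kb and 6 of 21 at over 50 to 100 kb. Within 500 kb, 38 of 257 (14.8%) were lower. The strand was not used in counting, and fragments overlapping exons of several genes were left out, so for overlapping pairs part of a value may come from the partner's intron; how much was not tested.

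**Figure D5:**
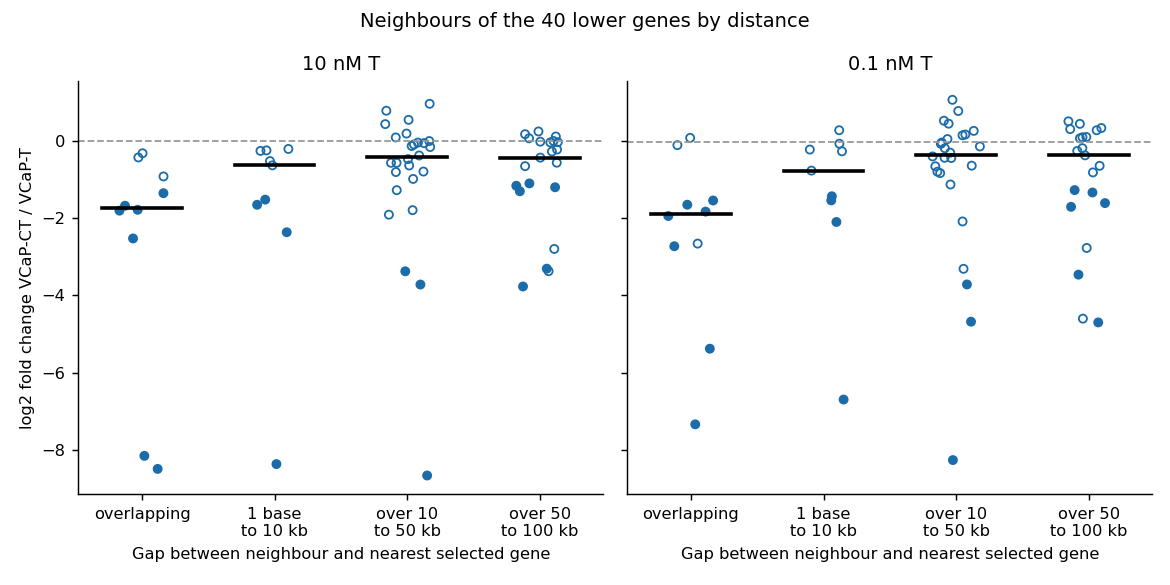
Log2 fold change of VCaP-CT over VCaP-T at 10 nM T (left) and 0.1 nM T (right) for the 66 tested neighbours of the lower genes, by gap to the nearest of these genes. Filled points are lower at both doses, black bars are medians and the dashed line is the median of all tested table genes; 7 of 10 overlapping neighbours are filled.

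Among the neighbours was AMER3, a membrane recruiter of the APC tumour suppressor, 36604 bases from the third chromosome 2 group. It had 25.5 to 39.0 CPM in VCaP-T and 0.029 to 0.144 CPM in VCaP-CT, with log2 differences of -8.66 at 10 nM T (SE 0.261, edgeR adjusted p = 4.80e-10) and -8.26 at 0.1 nM T. POTEI, 18042 bases from the second group, had a log2 difference of -3.72 at both doses (SE 0.689 and 0.668). CCDC74B, 88156 bases from FAR2P1, had -1.31 and -1.62 at 10 and 0.1 nM T, and both genes were called lower. RAB6C, which RAB6C-AS1 overlaps, was not called, with log2 differences of -0.44 (SE 0.262) and 0.07 (SE 0.261). Around the chromosome 2 copies, some coding genes were thus called lower and others were not called.

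The tumour necrosis factor receptor TNFRSF19, 82906 bases from LINC00327, had 67.2 to 84.6 CPM in VCaP-T and 2.97 to 5.45 CPM in VCaP-CT, with log2 differences of -3.77 (SE 0.0930, edgeR adjusted p = 8.51e-11) at 10 nM T and -4.70 (SE 0.0980) at 0.1 nM T. HPGD, which degrades prostaglandins and lies 13486 bases from ENSG00000251584, had 1717 to 1823 CPM in VCaP-T at 10 nM T, 985 to 1079 CPM after depletion, 37.1 to 43.1 CPM in VCaP-CT at 0.1 nM T and 148 to 169 CPM after rechallenge. Its log2 differences were -3.38 (SE 0.103) and -4.68 (SE 0.109) at the higher and lower dose. RIMS2, a presynaptic scaffold that ENSG00000253477 overlaps, had 18.5 to 37.9 CPM in VCaP-T and at most 0.269 CPM in VCaP-CT.

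In 2 divergent pairs the coding gene was also called lower. MAP4K3 had 119 to 166 CPM in VCaP-T and 47.6 to 56.9 CPM in VCaP-CT, with log2 differences of -1.36 (SE 0.0990, edgeR adjusted p = 6.60e-07) at 10 nM T and -1.55 at 0.1 nM T. TMEM178A, which MAP4K3-DT also overlaps, was called lower with log2 differences of -2.53 and -2.73. TWSG1, a secreted modulator of BMP signalling, had 143 to 158 CPM in VCaP-T and 45.02 to 52.6 CPM in VCaP-CT, and was called lower with log2 differences of -1.53 and -1.55. TWSG1-DT, 326 bases away in the count annotation, had 1.09 to 2.45 CPM in VCaP-T and 0.081 to 0.317 CPM in VCaP-CT.

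The RefSeq sequences (GRCh38.p14) before the start of these divergent RNAs are shown, along the strand of the RNA, because they lie between its start and that of a coding gene that was also lower. CpG dinucleotides are in capitals. For MAP4K3-DT all 130 bases between the starts are given (chr2:39437286-39437415, plus strand, 15 CpG). For TWSG1-DT, whose start lies 304 bases from that of TWSG1, the 250 bases before it are given (chr18:9334470-9334719, minus strand, 29 CpG).
MAP4K3-DT: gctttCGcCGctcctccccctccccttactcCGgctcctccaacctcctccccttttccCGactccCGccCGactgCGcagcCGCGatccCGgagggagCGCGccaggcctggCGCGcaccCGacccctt
TWSG1-DT: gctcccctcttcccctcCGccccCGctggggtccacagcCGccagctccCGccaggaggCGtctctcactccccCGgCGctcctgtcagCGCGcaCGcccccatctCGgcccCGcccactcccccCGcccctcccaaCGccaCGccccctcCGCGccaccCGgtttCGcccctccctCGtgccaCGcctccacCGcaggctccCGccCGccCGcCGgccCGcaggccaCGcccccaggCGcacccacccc

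RefSeq listed promoters, from 250 bases before to 50 after the start, for 10 of the 45 genes (13 promoters in all, 4 of them of MIR9-3HG). CpG counts in these windows ranged from 0 (LINC01687) to 39 (MAP4K3-DT), beside a median of 14 over all 35116 promoters. On either strand, the palindromic androgen receptor motif (AGAACA, 3 free bases, TGTTCT) was in none of the 13 and in 1 of all promoters. Its left arm AGAACA, which that motif contains, was in 1 of 13 (RAB6C-AS1) and in 14.8% of all. The letters TATAAA were in 4 of 13 (LINC00327, LINC01091, LINC01687 and RFPL1S) and in 11.5% of all. Some windows lie inside the body of the counted gene and not at its 5′ end. Examples are those of RFPL1S (chr22:29442080-29442379, body to 29478175 on the minus strand) and LINC00327 (chr13:23469262-23469561, body from 23466571 on the plus strand). A match is a description of the letters only.

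Neighbours of the microRNA, snoRNA and antisense genes were called in part. ARNT2, a bHLH transcription factor whose body holds MIR5572, had 60.7 to 116 CPM in VCaP-T and 60.1 to 90.5 CPM in VCaP-CT and was not called, with log2 differences of -0.33 (SE 0.158) and -0.12 (SE 0.158) at 10 and 0.1 nM T. GDF15, a stress-induced cytokine whose body holds MIR3189, had 139 to 260 CPM in VCaP-T, 29.4 to 32.3 CPM in VCaP-CT at 0.1 nM T and 76.8 to 86.4 CPM after rechallenge. Its log2 difference was -2.66 (SE 0.212, edgeR adjusted p = 1.20e-06) at 0.1 nM T and -0.93 at 10 nM T (SE 0.201, edgeR adjusted p = 0.00313), the latter under the fold threshold. CNTNAP2, a neurexin-like adhesion protein around the U3 gene, was called lower with log2 differences of -1.79 (SE 0.301) and -1.66 (SE 0.307). ANKRD34C, 9340 bases from ANKRD34C-AS1, had 0.862 to 1.52 CPM in VCaP-T and 0 to 0.027 CPM in VCaP-CT, and was at least 39.6-fold lower at 10 nM T. UGT1A1, a glucuronidation enzyme that ENSG00000243135 overlaps, was at least 43.7-fold lower at 10 nM T.

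Other neighbours were also lower at both doses. NEFH, the heavy neurofilament subunit, lies 2055 bases from RFPL1S (log2 -1.66 and -2.10 at 10 and 0.1 nM T). PSMD5, a proteasome assembly chaperone, is overlapped by CUTALP (-1.81 and -1.95), and ZNF473 had -1.68 and -1.84. Close to the 100 kb limit were ABHD17C at 98445 bases (-1.21 and -1.71) and ZNF703 at 95893 bases (-1.17 and -1.28). So were CTHRC1 at 98269 bases (-3.31 and -3.47) and complement component C5 at 97950 bases (-1.11 and -1.34). P2RY2, a nucleotide receptor 2623 bases from ENSG00000260401, had log2 differences of -2.37 and -1.44. Its edgeR adjusted p at 0.1 nM T rose from 0.00371 to 0.0146 without depleted VCaP-T replicate 3, 0.0203 without VCaP-CT 0.1 nM T replicate 2 and 0.0196 without replicate 3 of that group. The tested neighbours nearest to other abundant genes were not called: POLG beside MIR9-3HG (-0.01 and 0.16), CLUH beside CCDC92B and ANKRD18B beside ANXA2P2.

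The 5 higher genes had 5 neighbours, of which 3 were tested. None was higher at both doses by edgeR or DESeq2, nor at an unadjusted p under 0.05. ZNF90, a zinc finger gene 93521 bases from ENSG00000280079, had 3.65 to 5.32 CPM in VCaP-T and 0 to 0.058 CPM in VCaP-CT, with log2 differences of -6.78 (SE 0.318, edgeR adjusted p = 1.59e-08) and -6.79 at the higher and lower dose. Its difference was opposite in direction to that of ENSG00000280079. ZNF486, 20107 bases from the same gene, did not pass the filter on low counts. It was at 0 in 5 of the 6 VCaP-T libraries and at 0.0307 CPM in the other, against 0.113 to 0.216 CPM in VCaP-CT, and was at least 6.11-fold higher at 0.1 nM T.

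The response of the neighbours to testosterone was tested in the same model, over the neighbours of higher and lower genes together. On depletion of VCaP-T, 2 were called, beside 3.53% of tested table genes: ID2, an inhibitor of bHLH transcription factors, rose by 1.01 on the log2 scale (SE 0.136, edgeR adjusted p = 0.000356) and TMEM178A by 1.03 (SE 0.135). Without depleted VCaP-T replicate 2 the count was 0, and without VCaP-T 10 nM T replicate 2 it was 1. On rechallenge of VCaP-CT, 2 were called, beside 5.78%: HPGD rose by 2.07 (SE 0.0980) and GDF15 by 1.48 (SE 0.205). The response to 10 over 0.1 nM T differed between the lines in 3 neighbours, beside 1.22% of tested table genes. The selected genes themselves were chosen for small responses: the median ratio of 10 over 0.1 nM T of the 40 lower genes was 0.917 in VCaP-T and 1.0 in VCaP-CT.

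A list of 99 noncoding genes (HOX cluster transcripts, hosts of microRNAs and of small nucleolar RNAs, and long noncoding RNAs described in cancer) was compared with the 45 genes. Of 93 found outside the table, 60 were tested, of which 3 were called higher at both doses, beside 1.86% of all tested genes outside the table, and 2 lower, beside 2.93%. None met the rule, but MIR9-3HG, a microRNA host among the 45 genes, was not on the list. PCAT14 had 262 to 414 CPM in VCaP-T and 914 to 1339 CPM in VCaP-CT and rose by 1.80 on the log2 scale (SE 0.0758) and 1.63 at 10 and 0.1 nM T. SOCS2-AS1 rose by 1.09 and 1.28, and CASC15 by 1.34 and 1.13. LINC00963 was called lower, with log2 differences of -1.55 and -2.12, as was MIR17HG, host of a growth-promoting microRNA cluster, with -1.22 and -1.21.

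Libraries held 30.2 to 40.8 M counted fragments, so 3 fragments amount to 0.0735 to 0.0994 CPM; intervals from counts would cover counting error only. Replicates correlated at 0.994 or more over tested genes (log2 scale), except depleted VCaP-T replicate 2, at 0.968 and 0.972 with its group. That library held the lowest VCaP-T value in 22 of the 40 lower genes (55.0%), against 40.8% of the 3185 genes at the level of the rule, and the highest in 7 (17.5%), against 33.7%. All 9 luminal prostate markers were at 1 CPM or more in every group, and ERG was at 165 to 741 CPM. The 5 basal epithelial markers summed to 8.68 to 18.8 CPM in VCaP-T (3 of 5 at 1 CPM or more) and 1.92 to 3.74 CPM in VCaP-CT (1 of 5), with KRT5 at 0 in VCaP-T at 10 nM T and TP63 at 0 in rechallenged VCaP-CT, and their part in the results was not tested. Summed markers of fibroblasts and smooth muscle were at 6.63 to 15.1 CPM in VCaP-T and 2.26 to 5.22 CPM in VCaP-CT. Those of endothelium were at 14.2 to 16.4 and 8.59 to 13.4 CPM, and those of neuroendocrine cells at 69.8 to 77.2 and 61.9 to 68.3 CPM. These ranges did not overlap between the lines either, and their part was likewise not tested. Blood cell markers summed to 0.213 to 0.582 CPM in VCaP-T and 0.340 to 0.810 CPM in VCaP-CT.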

How the data were processed

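Poly(A) RNA of 12 libraries (4 groups of 3) was sequenced as 75-base read pairs after a stranded library preparation. The authors used STAR 2.5.4b for alignment to GRCh38 and featureCounts 1.6.2 for fragments per Gencode 28 gene, without using the strand and leaving out fragments that map to several places or overlap several genes; these raw counts were used. The deposited normalized table, a signal made by the authors with DESeq2 1.24.0 by dividing counts by size factors, served only to say which genes it lists.

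CPM were computed on the total of each library. Genes were tested with edgeR 4.0.16 (R 4.3.3) in 1 quasi-likelihood model of the 4 groups, with TMM factors, edgeR's own filter for low counts, and Benjamini-Hochberg adjustment over 19162 genes. DESeq2 1.42.0 was an alternative, and the edgeR step was checked on simulated data. Symbols and biotypes are from Gencode 44. Copies were aligned with MAFFT 7.526 and blastn 2.17.0.

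The members and lists were chosen with earlier results of these data known. Named among the 45 genes are, per direction, the 10 with the highest level and the 5 with the largest smaller ratio, those of groups of 3, and the 3 on each side of the threshold; of the neighbours, the 10 with the smallest adjusted p and the nearest to the 10. Parent genes and the other named genes were chosen after their names or values were seen. Where no fragment was counted in a group, folds are bounds against a floor of 3 fragments. A sequence comparison of 1 further copy is not reported here.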

Additional observations from a re-analysis of the deposited data

Results flagged for a closer look

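In 3 neighbours of lower genes the response to 10 against 0.1 nM T differed between the lines (edgeR interaction term, Benjamini-Hochberg adjustment over all genes tested). For HPGD, beside ENSG00000251584, the difference was 1.30 on the log2 scale (SE 0.133, adjusted p = 0.000422), from a change of -0.77 on depletion of VCaP-T and of 2.07 on rechallenge of VCaP-CT. For GDF15, around MIR3189, it was 1.74 (SE 0.284, adjusted p = 0.00678), with 0.26 on depletion and 1.48 on rechallenge. For TNFRSF19, near LINC00327, it was 0.93 (SE 0.125, adjusted p = 0.00205), with 0.09 on depletion and 0.84 on rechallenge. Without depleted VCaP-T replicate 2 the count was 9. It was 1 without VCaP-T 10 nM T replicate 2, without any of the 3 VCaP-CT 0.1 nM T replicates, and without VCaP-CT 10 nM T 48 h replicate 2.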

How the results depend on the processing

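The selected set depended on its offset and threshold. Against 5 higher and 40 lower genes, it held 26 with an offset of 0.5 CPM (2 higher, 24 lower), 16 with 1 CPM (2 and 14), 83 at a ratio of 3 (21 and 62) and 20 at a ratio of 8 (3 and 17). It held 43 to 48 with single libraries left out, where 31 of the 45 were in all 12 sets. Lower neighbours numbered 11 within 10 kb, 38 within 500 kb and 19 to 23 with single libraries left out. Neighbours called on depletion numbered 1 with DESeq2 size factors, 1 by DESeq2, 0 in a fit of their own 6 libraries, 1 within 10 kb, 12 within 500 kb and 0 to 2 with single libraries left out. On rechallenge they numbered 1 within 10 kb, 14 within 500 kb and 2 in each set with a library left out. Differing responses numbered 5 by DESeq2, 1 within 10 kb and 1 to 9 with single libraries left out. The cause of these shifts was not tested, apart from the number of genes within each distance.

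Replicate numbers did not pair the libraries: correlations of deviations ran from -0.18 to 0.057 over 18 same-number pairs, and 2 of 12 libraries correlated best with their own number. With the replicate block, 20 neighbours were lower, 1 was called on depletion and 1 differed in response.

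With single libraries left out, the sign changed for uncalled log2 differences. At 0.1 nM T the ranges were -0.15 to 0.26 for FAR2, -0.30 to 0.056 for ID2, -0.56 to 0.33 for KLF2, -0.060 to 0.28 for POLG and -0.17 to 0.37 for RAB6C. At 10 nM T they were -0.050 to 0.21 for FAR2, -0.078 to 0.043 for KLF2 and -0.087 to 0.036 for POLG. In a fit of their own 6 libraries, CNTNAP2 (adjusted p = 0.0217), POTEI (0.0204) and P2RY2 (0.0223) missed the edgeR threshold at 0.1 nM T.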
